A study of Mus musculus with 48 samples.

Results

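Cholesterol is built in cells from acetyl-CoA, brought in from lipoproteins and moved out by membrane transporters, and the genes of these 3 activities were followed here in mice under caloric restriction, after a fast and in FGF21-Tg animals. The genes came from a list of 36 symbols that names the enzymes of the mevalonate steps, the enzymes of the squalene and sterol steps, the proteins that control them, the liver X receptors with their transporters, and genes of cholesterol uptake, esterification and lysosomal handling. Of the 36, 28 were the symbol of a probe on the array, among 16593 genes named there. Acat2, Mvk, Fdft1, Nr1h2, Soat1, Soat2 and Npc1 were not probe symbols, and Sc4mol is an older name of Msmo1, so these 8 names were not analysed. A gene was tested in a tissue when its brightest probe was detected there, with a detection p under 0.05 for 3 arrays or more, which could all belong to the group in which it was high. On this basis 27 of the 28 genes were tested in liver (all but Abca1), 23 in muscle (all but Abca1, Abcg1, Abcg5, Abcg8 and Scarb1) and 27 in fat (all but Abcg8).

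Transcripts were measured in 48 Illumina MouseRef-8 arrays of male C57Bl/6J mice aged 3 months, from liver, from gastrocnemius muscle and from white adipose tissue of the epididymis (fat). Each tissue had 3 arrays of wild-type mice fed ad libitum and 4 of wild-type mice under caloric restriction for 2 weeks. The labels give the restriction as 40%, and by the methods this was the share of earlier daily intake that was fed. A further 3 arrays were of wild-type mice fasted for 24 hr. The rest were 3 of wild-type mice that served as controls of the transgenic line and 3 of ApoE-FGF21-Tg mice, both of these fed. Restricted mice received their food late in the afternoon and were killed before the next meal, so the diet itself and the hours without food cannot be told apart. In the transgenic mice the apolipoprotein E promoter drives FGF21, a hormone of the fasted liver, in hepatocytes. Fgf21 read 15.77 to 15.94 (log2 signal) on the transgenic liver arrays against 8.04 to 9.41 in wild-type liver. It also read 13.13 to 14.45 in transgenic fat and 7.55 to 8.37 in transgenic muscle, against at most 5.68 and 5.81 in the wild-type arrays of these tissues. A replicate held cRNA of a single mouse or of a small pool, so the p-values measure the spread between arrays.

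The arrays lay on 6 chips of 8, and on chips 2 and 3 the markers of 12 of 16 arrays went against the labelled tissue. After the labels of these 2 chips were exchanged position by position, Apoa1 (liver), Ckm (muscle) and Adipoq (fat) fitted the label on 16 of 16 arrays, and on the other 4 chips they fitted as labelled on 32 of 32. At the positions where both chips held fat, with 4 arrays, the markers fitted either way. There, after the exchange, the arrays of restricted fat correlated at 0.981 to 0.985 with the rest of their group and at 0.928 to 0.930 with ad libitum fat. Restricted fat then lay on chip 2 alone and ad libitum fat on chip 3 alone. A chip effect would give the same order, so this check cannot decide the exchange at those positions. The exchange is not given by the labels. Every value below uses it unless another basis is named, and groups are named after it. Liver ad libitum, liver fasted and replicates 1 and 2 of restricted liver lay on the first chip and were not touched. Without chips 2 and 3 no comparison with ad libitum was possible in muscle or fat, because their ad libitum arrays were all on those chips. Restricted muscle and the other fed controls of muscle held none of the exchanged arrays.

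On each array 42.0 to 56.3% of probes were detected, the median signal was 182 to 265, and replicates of a group correlated at 0.902 (fat of wild-type mice) to 0.993. The mean of 7 measured hepatocyte markers was 14.4 to 14.7 in liver and at most 5.62 in muscle, apart from 8.38 in replicate 3 of transgenic muscle. The same mean ran from 6.87 to 9.98 in restricted fat, 7.34 to 9.62 in ad libitum fat and 7.29 to 8.59 in fasted fat. The mean of 6 adipocyte markers was 13.7 to 13.9 in ad libitum fat, 12.9 to 13.1 in fasted fat and 12.2 to 12.3 in restricted fat. Among these markers, Lep (leptin) read 15.75 to 15.78, 11.92 to 12.78 and 5.86 to 6.11 in the same order. Adipoq read 15.86 to 15.98, 15.93 to 16.03 and 15.87 to 15.89, so the fall of the mean was not shared by every marker. In whole tissue, fewer cells of a type and less RNA per cell cannot be told apart. All signals below are on the log2 scale after background correction, on which an undetected probe still has a value, so that a change toward an undetected group is understated.

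Cholesterol synthesis is governed by SREBP-2, the product of Srebf2. This factor lies in the membrane of the endoplasmic reticulum, is escorted to the Golgi by SCAP when sterols are scarce, and is held back by INSIG1 and INSIG2 when they are plentiful. The released factor raises the genes of nearly every step from acetyl-CoA to cholesterol, and Insig1 itself. The liver X receptors work on the other side: bound by oxysterols, they raise the transporters ABCA1, ABCG1, ABCG5 and ABCG8, which move cholesterol out of cells. In liver these pathways supply lipoproteins and bile. Accordingly, 18 measured genes were taken as the SREBP-2 arm (the steps of synthesis, Srebf2, Insig1 and the sterol carrier Stard4) and 5 as the LXR arm (Nr1h3, which encodes the receptor LXR alpha, and the 4 transporters).

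The promoters of genes from both arms are shown because the results turn on how these genes moved together. The RefSeq table (GRCm38.p6) held a promoter, from 250 bases before to 50 after the start, for 27 of the 36 listed names. The core of a sterol regulatory element was searched as TCACNCCAC on both strands. It lay in 1.24% of 32851 promoters of this length and in 1 of the 27, that of Hmgcs1. The shorter form CACNCCAC, which the first contains, lay in 6.24% of promoters and in 3 of the 27, those of Acat2, Hmgcs1 and Insig1. CCAAT, the letters bound by NF-Y, a partner of SREBP at many sterol genes, lay on either strand in 37.4% of promoters. It lay in 22 of the 27. By arm, these were 16 of the 17 listed SREBP-2 names with a promoter, which include Mvk and Acat2 although no probe measured them, and 2 of the 5 LXR names with one. The DR4 element of the liver X receptors lay in 0.0152% of promoters and in 0 of the 27. The percentages count each promoter window, whereas a listed name with several windows, such as Dhcr7, counted if any of them held the letters. Such names had more chances to match, so the 2 kinds of share are not strictly alike. A match is a string of letters and not a site, and no match says only that the letters are not in this window. In the sequences below, capitals mark TCACNCCAC in Hmgcs1, CACNCCAC on the other strand in Insig1, and CCAAT or its reverse complement ATTGG in the rest, although Hmgcs1 and Insig1 hold that box too.
Hmgcs1 (chr13:119690101-119690400, plus strand): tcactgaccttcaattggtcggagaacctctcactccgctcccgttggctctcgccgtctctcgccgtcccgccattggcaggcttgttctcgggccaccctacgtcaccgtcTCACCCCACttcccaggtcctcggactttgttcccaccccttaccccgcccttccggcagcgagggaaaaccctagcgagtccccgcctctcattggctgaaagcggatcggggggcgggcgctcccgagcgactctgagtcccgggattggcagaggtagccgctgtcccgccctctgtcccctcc
Insig1 (chr5:28071162-28071461, plus strand): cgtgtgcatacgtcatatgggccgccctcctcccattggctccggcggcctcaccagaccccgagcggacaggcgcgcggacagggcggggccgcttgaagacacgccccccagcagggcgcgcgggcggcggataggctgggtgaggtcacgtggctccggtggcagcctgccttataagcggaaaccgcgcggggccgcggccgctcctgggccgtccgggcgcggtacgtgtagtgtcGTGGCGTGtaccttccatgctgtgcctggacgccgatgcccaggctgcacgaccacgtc
Cyp51 (chr5:4104648-4104947, minus strand): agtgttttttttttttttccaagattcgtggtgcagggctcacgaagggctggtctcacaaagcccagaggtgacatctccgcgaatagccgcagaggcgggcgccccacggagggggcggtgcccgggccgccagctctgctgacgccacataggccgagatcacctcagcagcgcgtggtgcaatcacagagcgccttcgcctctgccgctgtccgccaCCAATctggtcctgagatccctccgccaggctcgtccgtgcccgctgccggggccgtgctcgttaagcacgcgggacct
Mvd (chr8:122443373-122443672, minus strand): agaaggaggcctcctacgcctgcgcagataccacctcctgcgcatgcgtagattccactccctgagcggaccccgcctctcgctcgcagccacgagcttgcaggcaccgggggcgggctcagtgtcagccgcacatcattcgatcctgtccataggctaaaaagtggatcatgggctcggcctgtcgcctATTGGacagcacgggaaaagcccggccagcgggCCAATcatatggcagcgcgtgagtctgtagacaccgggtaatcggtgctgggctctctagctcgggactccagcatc
Insig2 (chr1:121332540-121332839, minus strand): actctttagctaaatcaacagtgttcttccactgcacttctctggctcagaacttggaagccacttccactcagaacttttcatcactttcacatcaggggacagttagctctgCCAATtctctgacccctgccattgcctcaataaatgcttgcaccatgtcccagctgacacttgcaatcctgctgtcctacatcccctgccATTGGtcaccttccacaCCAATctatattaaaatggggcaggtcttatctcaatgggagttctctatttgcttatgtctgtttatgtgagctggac
Abcg8 (chr17:84682871-84683170, plus strand): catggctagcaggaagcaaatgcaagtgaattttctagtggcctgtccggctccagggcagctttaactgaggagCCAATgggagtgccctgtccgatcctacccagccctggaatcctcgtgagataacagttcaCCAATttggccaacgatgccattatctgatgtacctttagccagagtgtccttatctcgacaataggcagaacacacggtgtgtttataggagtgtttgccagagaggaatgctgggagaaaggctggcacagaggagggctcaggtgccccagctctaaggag
Abcg8 shares its start region with Abcg5, which is read in the opposite direction, and the promoter windows of this pair overlapped.

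Liver carried most of the pathway. In fed mice (ad libitum and wild-type arrays together, fitted with the other groups over all 48 arrays), 27 of 28 genes read lower in muscle than in liver at an adjusted p under 0.10, against 33.2% of all 11772 genes, and 0 read higher, against 39.5%. Fat was below liver for 24 of 28 genes, against 29.5% of all genes, and above it for 2, against 39.1%. These 2 were Npc2, a lysosomal cholesterol carrier (difference 2.14 ± 0.16, SE), and Abcg1 (1.09 ± 0.21). Nr1h3 and Abca1 did not pass between fat and liver (0.17 and 0.27).

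The canalicular transporters had the clearest tissue pattern. Abcg5 averaged 13.14 ± 0.10 in ad libitum liver and 12.85 ± 0.24 in wild-type liver (SD, n = 3 each), against 5.88 to 6.63 as group means in fed muscle and fat. Abcg8 averaged 12.33 ± 0.26 and 12.19 ± 0.39 in liver and was detected on 0 of the fed muscle and fat arrays. Lcat, the plasma enzyme that esterifies cholesterol on lipoproteins, averaged 12.90 ± 0.06 and 13.17 ± 0.01 in liver and 5.54 to 6.44 in the other tissues. Hmgcs1, which makes HMG-CoA, kept a high reading outside liver, with group means of 15.22 and 15.20 in liver, 14.46 and 14.53 in fat, and 12.18 and 12.39 in muscle. Fat thus lay nearer to liver for Hmgcs1 (difference −0.72 ± 0.17) than for Sqle, squalene epoxidase (−2.88 ± 0.26).

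The first question was what caloric restriction and a fast did to the pathway in liver. Restriction lowered 17 of the 27 genes tested, against 17.9% of 9019 genes, and raised 2, against 17.6%. Fasting also lowered 17, against 9.67%, and raised 2, against 8.42%. The 2 comparisons share their ad libitum arrays, so their values stand side by side and their overlap was not counted. A change of more than 2-fold was met by 11 of the 19 called genes in restricted liver and by 15 of 19 in fasted liver. The share of all called genes that met it is not given here, so these 2 counts only describe the size of the changes.

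By step, the mevalonate enzymes fell 3 of 5 with restriction (median log2 change −2.17) and 5 of 5 with the fast (median −3.73, or −3.55 with the undetected Mvd at its bound). The squalene and sterol enzymes fell 10 of 10 with restriction (median −1.21) and 9 of 10 with the fast (median −2.23). Over the whole SREBP-2 arm 15 of 18 fell with restriction and 16 of 18 with the fast, with medians of −1.21 and −2.48. The median over all genes tested was 0.01 and 0.00. In the LXR arm 1 of 4 fell with restriction and 0 of 4 with the fast, with medians of −0.21 and −0.29. The latter was −0.20 with the undetected Abcg1 at its bound.

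Hmgcs1 read 15.25, 15.75 and 15.11 in ad libitum liver, 13.60, 13.29, 13.06 and 12.86 in restricted liver and 12.80, 12.90 and 12.59 in fasted liver. Each restricted and fasted array was below each ad libitum array. The change was −2.17 ± 0.22 (SE; adjusted p = 2.64e-06) with restriction and −2.61 ± 0.23 (adjusted p = 2.09e-06) with the fast.

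Idi1, which isomerizes isopentenyl diphosphate, read 10.50, 10.78 and 10.20 fed, 9.04, 8.89, 7.38 and 7.95 restricted, and 6.87, 6.67 and 6.76 fasted. The 3 groups did not overlap, and the restricted replicates on the first chip (1 and 2) were the higher ones. Mvd, mevalonate diphosphate decarboxylase, read 9.44, 9.94 and 9.29 fed and 7.60, 7.40, 7.11 and 7.11 restricted. It was not detected on the 3 fasted arrays, a level at least 11.7-fold below ad libitum (adjusted p = 1.34e-06) and at least 2.46-fold below restriction.

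Fdps, farnesyl diphosphate synthase, separated the 2 diets. It read 13.97, 14.36 and 13.90 fed, 13.88, 13.66, 13.38 and 13.66 restricted, and 9.33, 9.90 and 9.92 fasted. All restricted arrays lay below the lowest fed array by little, whereas the fasted arrays lay far below both. The change with restriction did not pass (−0.43, 95% interval −0.99 to 0.12) and that with the fast was −4.36 ± 0.28 (adjusted p = 5.9e-08). Pmvk, phosphomevalonate kinase, had the same order: −0.17 with restriction (95% interval −0.59 to 0.24), where the groups overlapped, and −2.05 ± 0.21 with the fast, where they did not.

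**Figure D1:**
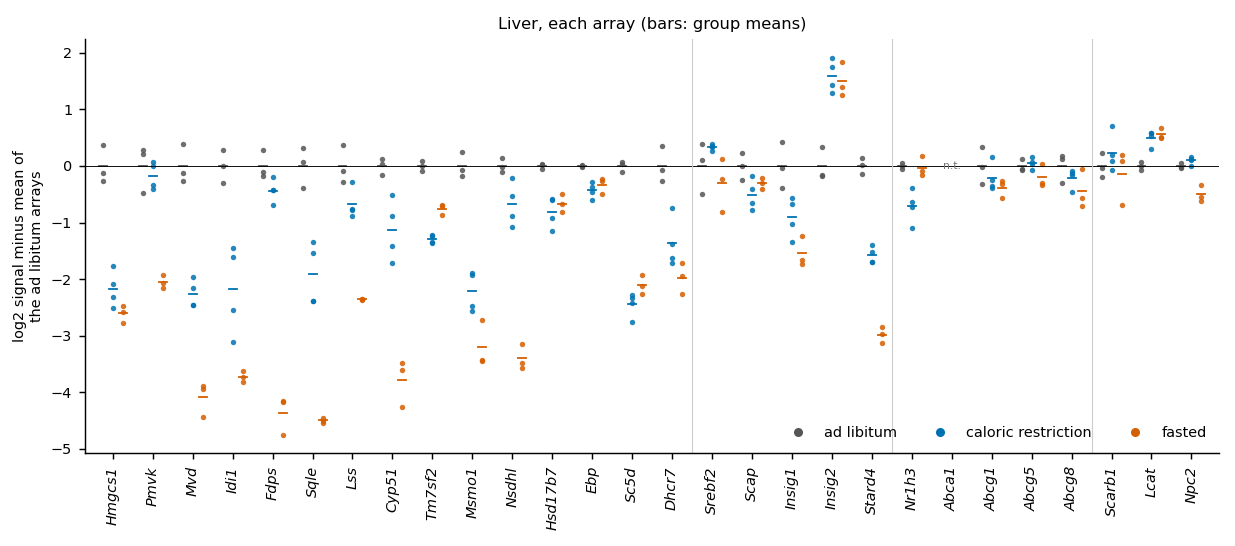
Log2 signal of each ad libitum, restricted and fasted liver array minus the mean of the ad libitum arrays of the same gene (vertical axis). Each array has 1 point and each group mean a bar. Fdps in restricted liver stays near the ad libitum arrays and changes by −4.36 after the fast, whereas Hmgcs1 changes by −2.17 and −2.61.

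Among the sterol enzymes, Sqle read 11.75, 12.45 and 12.20 fed, 10.79, 10.59, 9.75 and 9.75 restricted, and 7.59, 7.68 and 7.63 fasted. Cyp51, lanosterol 14-alpha-demethylase, read 11.36, 11.64 and 11.54 fed, 11.00, 10.63, 9.79 and 10.10 restricted, and 7.25, 8.03 and 7.91 fasted. Nsdhl, a sterol dehydrogenase of the demethylation complex, read 9.99, 10.08 and 10.24 fed, 9.89, 9.57, 9.03 and 9.22 restricted, and 6.54, 6.61 and 6.97 fasted. In these 3 genes no group overlapped another, with restriction between the fed and the fasted arrays. The changes with the fast were −4.49 ± 0.33 (Sqle), −3.78 ± 0.27 (Cyp51) and −3.40 ± 0.21 (Nsdhl), with adjusted p of 2.17e-07, 1.88e-07 and 3.51e-08. The changes with restriction were −1.91 ± 0.31, −1.13 ± 0.25 and −0.68 ± 0.19.

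The other sterol enzymes did not all keep this order. Sc5d, lathosterol oxidase, read 10.24, 10.40 and 10.38 fed, 7.59, 7.92, 8.01 and 8.07 restricted, and 8.22, 8.42 and 8.08 fasted. The fall was −2.44 ± 0.23 with restriction and −2.10 ± 0.25 with the fast, and the fasted arrays lay just above the restricted ones. Msmo1, methylsterol monooxygenase (−2.21 and −3.20), and Dhcr7, the enzyme that turns 7-dehydrocholesterol into cholesterol (−1.37 and −1.98), fell with both diets. So did Tm7sf2, a sterol reductase (−1.29 and −0.75), Hsd17b7, a sterol ketoreductase (−0.81 and −0.66), and Lss, lanosterol synthase (−0.67 and −2.36). Ebp, a sterol isomerase, fell by 0.43 with restriction and gave −0.33 with the fast (adjusted p = 0.187).

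Stard4, the soluble sterol carrier of the SREBP-2 arm, moved like the enzymes. It read 11.95, 12.08 and 11.80 fed, 10.55, 10.25, 10.42 and 10.25 restricted, and 9.10, 8.97 and 8.81 fasted, without overlap. The changes were −1.57 ± 0.14 and −2.98 ± 0.15 (adjusted p = 7.19e-07 and 2.63e-09).

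The transcripts of the control proteins did not all go with the enzymes. Srebf2 read 8.20, 8.50 and 7.61 fed, 8.37, 8.49, 8.43 and 8.46 restricted, and 7.29, 8.22 and 7.88 fasted, with overlap of all 3 groups except restricted and fasted. Neither diet passed the test against ad libitum (0.34 ± 0.23 and −0.31 ± 0.25). Scap fell with restriction (−0.51 ± 0.18, adjusted p = 0.0416) and gave −0.30 with the fast (adjusted p = 0.334).

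Insig1 read 11.31, 11.78 and 10.96 fed, 10.79, 10.67, 10.01 and 10.33 restricted, and 9.68, 9.62 and 10.12 fasted. The fed arrays were above all others, and the restricted and fasted ones overlapped. Insig1 fell by 0.90 ± 0.25 (adjusted p = 0.0116) and fell by 1.54 ± 0.26 (adjusted p = 0.000803), and its 2 dimmer detected probes gave −2.92 and −3.51 with the fast. Its paralog moved the other way. Insig2 read 12.42, 11.91 and 11.92 fed, 13.83, 13.51, 13.37 and 13.99 restricted, and 13.49, 13.33 and 13.92 fasted, and rose by 1.59 ± 0.18 and 1.49 ± 0.20 against these arrays (adjusted p = 1.19e-05 and 8.09e-05).

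The rise of Insig2 rested on the choice of fed control. The wild-type controls of the transgenic line, also fed, read 13.45, 13.32 and 13.39 for Insig2. The first and last of these lay within the range of the fasted and restricted arrays, and 13.32 lay just below it. Against them, an alternative chosen after seeing the data, Insig2 changed by 0.29 with restriction (adjusted p = 0.256) and 0.19 with the fast (adjusted p = 0.543). Lcat, which rose by 0.50 and 0.56 against ad libitum, gave 0.20 and 0.26 against the same arrays and was lost as a call, as were both falls of Hsd17b7 (−0.23 and −0.09). With these controls 17 and 16 genes still fell, and 1 and 0 rose. Restricted liver was split over 2 chips: within the first chip alone (2 restricted arrays) 12 genes fell and 2 rose. Lss, Nsdhl, Ebp, Scap and Insig1 then lost their calls, with changes of −0.52, −0.38, −0.37, −0.29 and −0.62. Fasted and ad libitum liver both lay on the first chip. The shares of all genes called in these alternative fits are not given here.

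In the LXR arm, Nr1h3 read 11.66, 11.62 and 11.56 fed, 10.98, 10.52, 10.89 and 11.22 restricted, and 11.52, 11.79 and 11.45 fasted. It fell with restriction (−0.71 ± 0.17, adjusted p = 0.00489), where the arrays did not overlap and its second probe gave −0.35, and changed by −0.03 with the fast (95% interval −0.41 to 0.35). Abcg5 read 13.30, 13.10 and 13.13 fed, 13.21, 13.25, 13.33 and 13.11 restricted, and 13.21, 12.88 and 12.84 fasted. All its groups overlapped, and the intervals were −0.36 to 0.46 with restriction and −0.64 to 0.24 with the fast. Abcg8 read 11.96, 12.39 and 12.45 fed, 12.11, 12.18, 12.13 and 11.81 restricted, and 12.22, 11.70 and 11.55 fasted, with intervals of −0.80 to 0.39 and −1.08 to 0.19. Abcg1 gave −0.21 with restriction and was not detected in fasted liver, and Abca1 was detected on 1 liver array, an ad libitum one. Outside both arms, the HDL receptor gene Scarb1 gave 0.23 and −0.14, and Npc2 gave 0.10 with restriction and fell by 0.50 with the fast (adjusted p = 0.0856).

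**Figure D2:**
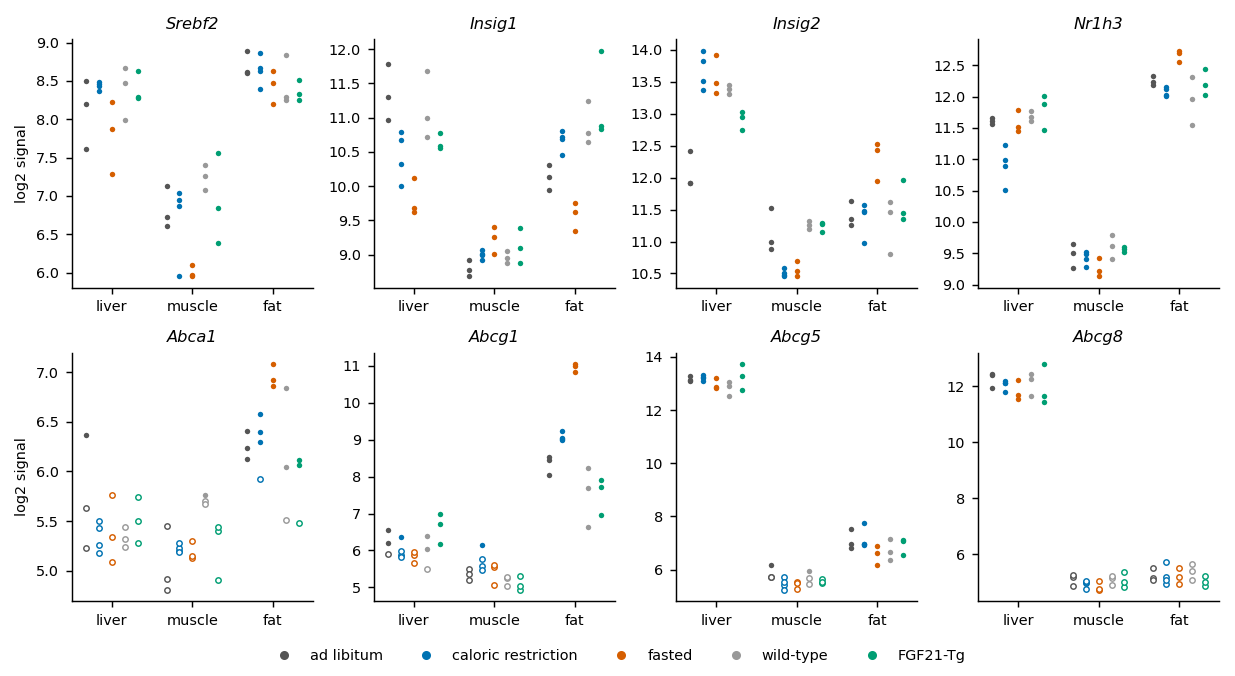
Log2 signal per array (vertical axis) of the control genes Srebf2, Insig1 and Insig2 and of the LXR arm, in 5 groups of each of 3 tissues, with open circles where the detection p was 0.05 or more. Abcg5 and Abcg8 are bright in liver alone, and Abcg1 stands out in fasted fat, between 10.84 and 11.05.

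The fast was also compared with restriction directly. In fasted liver 13 of 27 genes read lower than in restricted liver, against 12.5% of all genes, and 1 read higher, against 12.5%. Fdps differed by −3.92 ± 0.26, Nsdhl by −2.72 ± 0.19, Cyp51 by −2.65 ± 0.25, Sqle by −2.58 ± 0.31 and Pmvk by −1.87 ± 0.20. Lss (−1.68), Idi1 (−1.55), Stard4 (−1.41), Msmo1 (−0.99), Srebf2 (−0.64), Insig1 (−0.64), Npc2 (−0.59) and Mvd were the others. Nr1h3 was the gene that read higher (0.68 ± 0.17, adjusted p = 0.0103). Hmgcs1 (−0.44), Tm7sf2 (0.54), Hsd17b7 (0.15), Ebp (0.10), Sc5d (0.34), Dhcr7 (−0.61) and Insig2 (−0.10) did not pass.

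In FGF21-Tg liver the pathway had few calls. Of 27 genes 1 fell, against 2.36% of all genes, and 1 rose, against 3.28%. Sc5d read 9.97, 9.53 and 8.83 in transgenic and 10.68, 10.40 and 9.88 in wild-type liver, with overlap, and fell by 0.87 ± 0.25 (adjusted p = 0.0746). Lcat read 13.83, 13.45 and 13.90 against 13.20, 13.22 and 13.21, without overlap, and rose by 0.51 ± 0.14 (adjusted p = 0.0652). Both calls were lost when wild-type replicate 1, wild-type replicate 2 or transgenic replicate 3 was left out.

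For genes that moved with diet, the 95% intervals of the change in FGF21-Tg liver ran from −0.67 to 0.32 for Hmgcs1, from −0.75 to 0.63 for Sqle and from −0.26 to 0.89 for Cyp51. Insig2 read 13.03, 12.74 and 12.95 in transgenic liver, each below the wild-type arrays, and gave −0.48 ± 0.20 (adjusted p = 0.211). Srebf2 (0.02), Insig1 (−0.50), Nr1h3 (0.10), Abcg5 (0.41) and Abcg8 (−0.15) did not pass. Wild-type replicate 3, which lay on the chip of the transgenic arrays, read below replicates 1 and 2 for each of the 15 enzymes, with 8.54 against 10.22 and 10.30 for Mvd and 10.91 against 12.13 and 12.04 for Sqle.

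**Figure D3:**
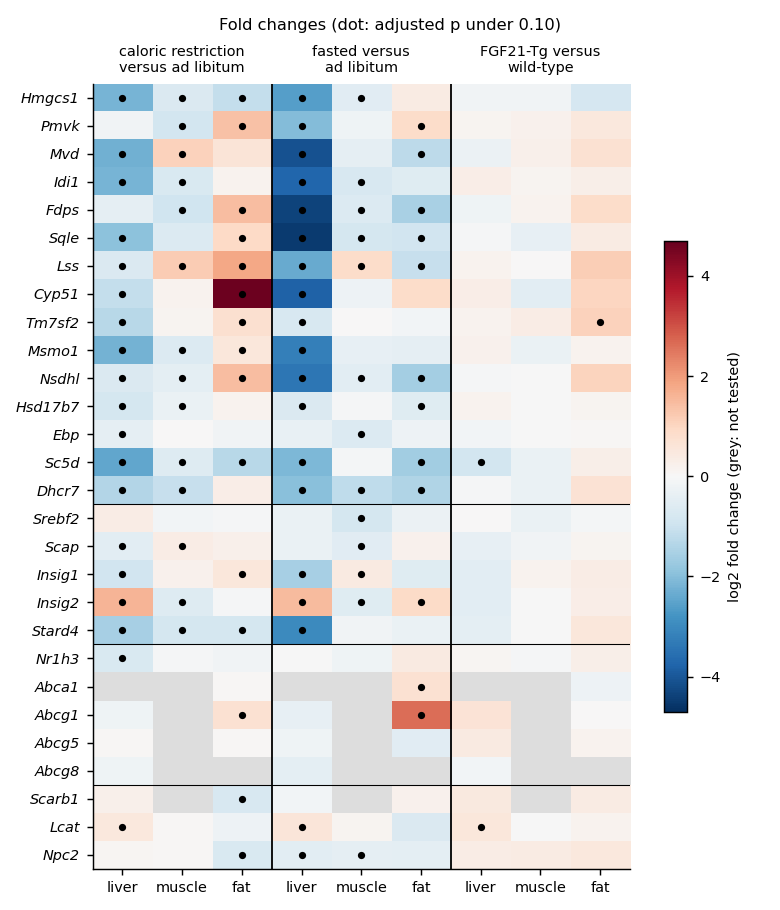
Log2 fold change (colour) of 28 genes (rows) in 9 comparisons (columns), with a dot where the adjusted p was under 0.10 and grey where the gene was not tested. The liver diet columns are blue over nearly all enzymes, with medians of −1.21 and −2.48 over the SREBP-2 arm, and fat under restriction turns to positive values, with a median of 0.54.

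The second question was whether muscle and fat followed the liver. In muscle, restriction lowered 11 of 23 genes, against 25.7% of 9535 genes, and raised 3, against 25.9%. The fast lowered 11, against 21.5%, and raised 2, against 19.7%. Over the SREBP-2 arm 10 of 18 fell and 2 rose with restriction (median −0.52, or −0.39 with undetected genes at their bounds), and 8 fell and 2 rose with the fast (median −0.41).

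Hmgcs1 read 12.03, 12.14 and 12.08 in ad libitum muscle, 11.56, 11.29, 11.53 and 11.29 restricted, and 11.51, 11.61 and 11.52 fasted. Fed arrays lay above all others, and the changes were −0.66 ± 0.11 and −0.53 ± 0.12. Fdps read 10.69, 10.12 and 10.18 fed, 9.47, 9.20, 9.44 and 9.54 restricted, and 9.51, 9.82 and 9.73 fasted, again with no overlap with the fed arrays. Both changes were falls (−0.92 ± 0.15 and −0.64 ± 0.16). Dhcr7 read 7.23, 6.78 and 6.39 fed and was detected on 1 of 4 restricted and 1 of 3 fasted arrays. The changes were −1.10 ± 0.26 and −1.21 ± 0.28.

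Some enzymes went up in restricted muscle. Mvd read 7.16, 6.62 and 7.38 fed, 8.07, 8.31, 7.80 and 8.34 restricted, and 6.55, 6.86 and 6.52 fasted. The restricted arrays were above all others, and Mvd rose by 1.07 ± 0.19 with restriction (adjusted p = 0.00025) and gave −0.41 with the fast (adjusted p = 0.132). Lss was not detected in ad libitum muscle and was at least 1.57-fold higher with restriction and at least 1.24-fold higher with the fast. Its 4 restricted arrays read 6.76, 6.64, 6.79 and 5.72, the last of them not detected.

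Pmvk fell by 0.85 in restricted muscle and gave −0.19 with the fast. Idi1 was not detected in restricted muscle, at least 1.40-fold below ad libitum, and fell by 0.76 with the fast. Nsdhl was not detected there either, at least 1.10-fold lower, and fell by 0.48 with the fast. A second probe, detected on 6 of 16 muscle arrays, gave 0.0027 with restriction and 0.14 with the fast. Msmo1 (−0.65), Sc5d (−0.59), Hsd17b7 (−0.30) and Stard4 (−0.82) fell with restriction, and gave −0.40, −0.07, −0.05 and −0.18 with the fast, below the test's threshold. Sqle gave −0.66 with restriction (adjusted p = 0.116) and fell by 0.83 with the fast. Ebp gave 0.01 and fell by 0.64. Cyp51 (0.15 and −0.24) and Tm7sf2 (0.13 and 0.03) did not pass, and neither did Lcat (0.05 and 0.14), which was detected on 1 of these 10 diet and ad libitum arrays. Npc2 gave 0.07 with restriction and fell by 0.41 with the fast (adjusted p = 0.0404), but turned to 0.25 with the other fed control.

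Both INSIG transcripts had the opposite sign in muscle to that in liver. Insig2 read 11.52, 10.99 and 10.88 fed, 10.51, 10.48, 10.46 and 10.58 restricted, and 10.53, 10.45 and 10.70 fasted. Fed arrays were above all others, and Insig2 fell (−0.62 ± 0.14 and −0.57 ± 0.15). The probe that stood for Insig2 in liver was another one, and in muscle it gave −0.12 with restriction and −0.51 with the fast. Insig1 read 8.77, 8.91 and 8.68 fed, 8.91, 8.99, 9.06 and 9.002 restricted, and 9.40, 9.26 and 9.01 fasted. It gave 0.20 with restriction (adjusted p = 0.236) and rose by 0.43 ± 0.14 with the fast (adjusted p = 0.0279), a call lost with the other fed control (0.26, adjusted p = 0.156). Scap rose by 0.37 with restriction and fell by 0.52 with the fast. Srebf2 gave −0.12 and fell by 0.81 ± 0.28 with the fast. Of the LXR arm only Nr1h3 could be tested, and it gave −0.04 and −0.21, where its second probe gave 0.74 and 0.28.

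The ad libitum muscle arrays were all on chip 2, the restricted ones on chip 4 and the fasted ones on both. With the chip as a block 6 genes fell and 1 rose with restriction, and 7 fell and 1 rose with the fast. With the other fed control 14 fell and 4 rose with restriction and 17 fell and 1 rose with the fast, Pmvk turned to 0.70 with the fast, and Lss was not called there (0.36, adjusted p = 0.326). The counts of these alternative fits stand without the shares of all genes, and are not read as particular to the pathway. Of the 13 calls in fasted muscle, 7 held in every fit with 1 array left out.

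In FGF21-Tg muscle 0 of 23 genes passed in either direction, against 0.43% higher and 0.524% lower among all genes. The interval for Sqle was −1.14 to 0.35, and replicate 3 of the transgenic arrays, which carried hepatocyte markers, read 6.76 against 8.41 and 8.33 for the other two.

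**Figure D4:**
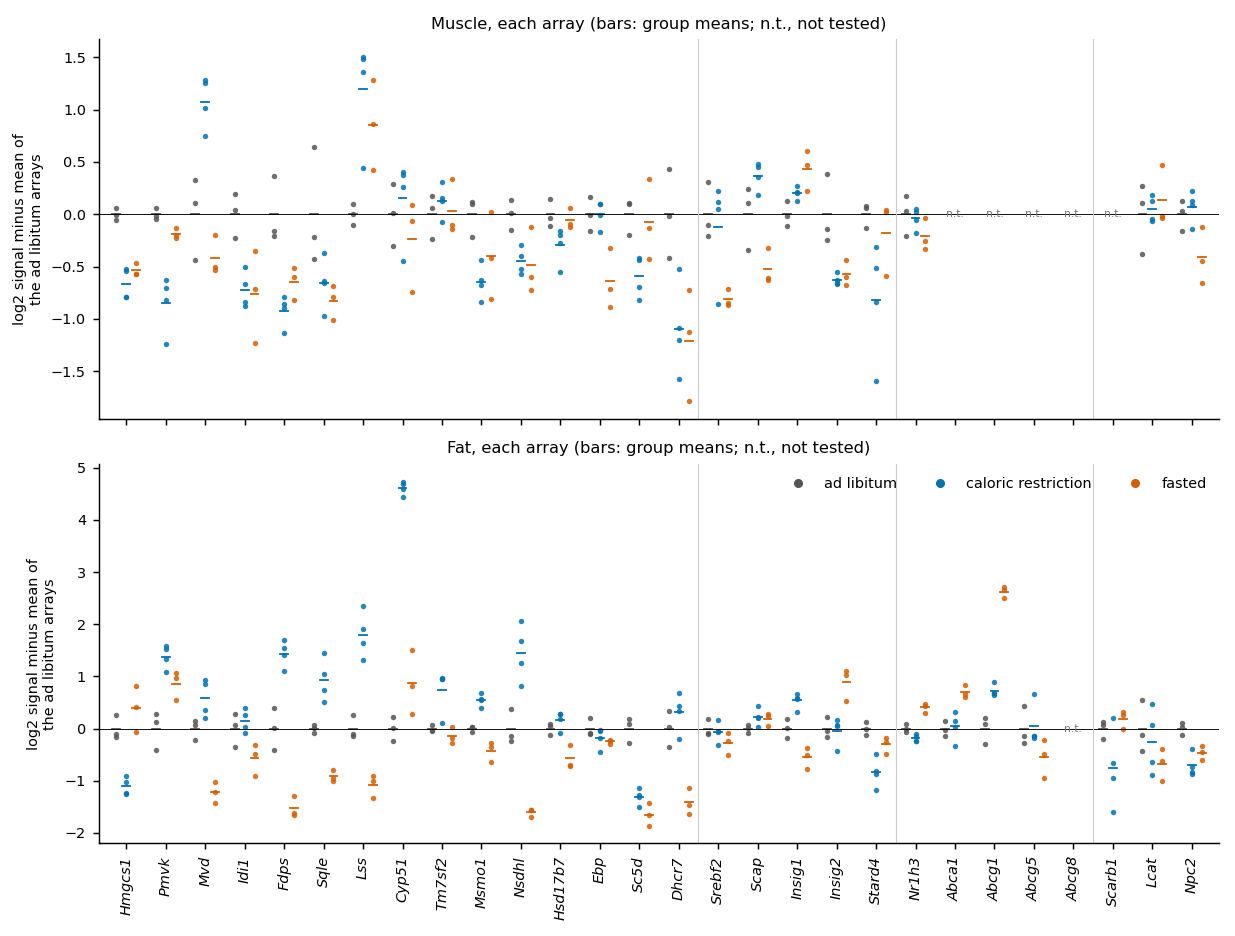
Log2 signal of ad libitum, restricted and fasted muscle and fat arrays minus the ad libitum mean of the same tissue and gene (vertical axis). Each array has 1 point and each group mean a bar. Cyp51 in restricted fat lies 4.62 above ad libitum fat on average, and Hmgcs1 in restricted fat changes by −1.10.

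Fat responded in its own way. Restriction raised 10 of 27 genes, against 22.4% of 10506 genes, and lowered 5, against 25.1%. The fast raised 4, against 12.3%, and lowered 8, against 15.5%, whereas the deposited normalized values gave 4 raised and 1 lowered and signals without background correction 4 and 5. By step, restriction raised 2 and lowered 1 of 5 mevalonate enzymes (median 0.59) and raised 6 and lowered 1 of 10 squalene and sterol enzymes (median 0.64). The fast raised 1 and lowered 2 of the mevalonate enzymes (median −0.57) and raised 0 and lowered 6 of the sterol enzymes (median −0.74).

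Cyp51 had the largest change of the 27. It read 8.27, 8.73 and 8.53 in ad libitum fat, 13.25, 13.20, 12.96 and 13.10 in restricted fat, 9.34, 8.79 and 10.02 in fasted fat and 10.03, 9.49 and 8.48 in wild-type fat. The restricted arrays stood apart from every other fat array, and the rise was 4.62 ± 0.37 (adjusted p = 5.04e-07). After the fast all arrays were above the fed ones, and the change of 0.87 did not pass (adjusted p = 0.146).

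Lss read 8.38, 8.74 and 8.34 fed, 10.84, 10.13, 10.39 and 9.79 restricted, and 7.58, 7.15 and 7.49 fasted. Nsdhl read 7.67, 8.28 and 7.77 fed, 9.97, 9.59, 9.16 and 8.72 restricted, and 6.34, 6.21 and 6.35 fasted. Fdps read 10.41, 10.81 and 9.999 fed, 11.81, 12.11, 11.95 and 11.50 restricted, and 9.12, 8.75 and 8.79 fasted. In all 3 the order was restricted above fed above fasted, with no overlap. The changes were 1.80, 1.45 and 1.44 with restriction (adjusted p = 0.00104, 0.00362 and 0.00324) and −1.08, −1.60 and −1.52 with the fast (adjusted p = 0.0561, 0.00608 and 0.00701).

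Pmvk rose with both diets, by 1.38 and 0.86. Sqle rose by 0.94 with restriction and fell by 0.91 with the fast. Msmo1 (0.55) and Tm7sf2 (0.74) rose with restriction and gave −0.42 and −0.14 with the fast. Mvd gave 0.59 (adjusted p = 0.233) and fell by 1.22. Dhcr7 gave 0.31 and fell by 1.41, and Hsd17b7 gave 0.16 and fell by 0.57. Idi1 (0.15 and −0.57) and Ebp (−0.18 and −0.25) did not pass.

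Against this direction, the early enzyme Hmgcs1 and the late enzyme Sc5d fell in restricted fat. Hmgcs1 read 14.20, 14.61 and 14.26 fed, 13.46, 13.34, 13.10 and 13.13 restricted, and 15.17, 14.77 and 14.30 fasted. It fell by 1.10 ± 0.27 with restriction (adjusted p = 0.00467), without overlap, and gave 0.39 with the fast (adjusted p = 0.389). Sc5d read 8.79, 9.25 and 9.16 fed, 7.92, 7.78, 7.75 and 7.55 restricted, and 7.63, 7.19 and 7.41 fasted, and fell with both (−1.31 and −1.65). Stard4 fell by 0.84 with restriction and gave −0.30 with the fast. Scarb1 and Npc2 fell with restriction (−0.75 and −0.71), and gave 0.19 and −0.46 with the fast. Lcat gave −0.25 and −0.67, neither of them a call.

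Among the control genes of fat, Insig1 rose by 0.54 with restriction (adjusted p = 0.0944) and gave −0.55 with the fast (adjusted p = 0.158), where its 2 dimmer detected probes gave −1.65 and −1.79. Insig2 gave −0.04 with restriction, where other probes gave 0.56 and 1.11, and rose by 0.89 ± 0.24 with the fast. It read 11.25, 11.36 and 11.63 fed and 11.95, 12.43 and 12.53 fasted, without overlap. Srebf2 (−0.07 and −0.27) and Scap (0.22 and 0.19) did not pass.

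In the LXR arm of fat the fast raised 2 of 4 genes and lowered 0 (median 0.55), against 12.3% raised among all genes, and restriction raised 1 of 4. Abcg1 read 8.54, 8.04 and 8.44 fed, 9.03, 8.99, 9.02 and 9.23 restricted, and 10.84, 11.00 and 11.05 fasted, with no overlap of the 3 groups. It rose by 2.62 ± 0.32 with the fast (adjusted p = 8.44e-05) and by 0.73 ± 0.30 with restriction (adjusted p = 0.0705). Abca1 read 6.12, 6.24 and 6.41 fed and 6.92, 6.87 and 7.08 fasted, and rose by 0.70 ± 0.28 with the fast (adjusted p = 0.0919), a call lost in each of the 6 fits with 1 array left out. With restriction Abca1 gave 0.04. Nr1h3 read 12.34, 12.19 and 12.24 fed and 12.70, 12.73 and 12.55 fasted, without overlap, and gave 0.40 ± 0.17 (adjusted p = 0.105), against 0.72 (adjusted p = 0.00611) with the other fed control. Its change with restriction was −0.18, where a second probe gave 0.31, and Abcg5 gave 0.05 and −0.55. The mean of 5 macrophage markers, of a cell type in which ABCG1 is abundant, was 7.98 to 8.16 in fasted, 8.05 to 8.31 in ad libitum and 7.47 to 7.56 in restricted fat. Its part in these changes was not tested.

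Fat under restriction lay on chip 2 and ad libitum fat on chip 3, so chip and diet cannot be told apart there. The fast and its controls shared chip 3. The calls in fat also rested on the control and on single arrays. With the wild-type controls in place of ad libitum, 11 genes rose and 2 fell with restriction, and Sqle gave 0.19 (adjusted p = 0.69). The share of all genes called against these controls is not given here. Leaving out 1 array at a time, 7 to 8 genes rose and 3 to 5 fell with restriction. Of the 15 calls 9 held in all these fits, and that of Sqle was lost without restricted replicate 1 or ad libitum replicate 1. With the fast 7 to 10 genes were called when 1 array was left out (the lowest count when fasted replicate 3 or either of ad libitum replicates 1 and 2 was the one omitted), and 6 of the 12 calls held in all these fits. The mean of the adipocyte markers moved with both diets as given above, where Lep fell and Adipoq did not. The mean of 6 endothelial markers was 8.88 to 9.07 in restricted fat against 9.67 to 9.92 in ad libitum fat, and that of 8 skeletal muscle markers 6.60 to 7.75 in fasted against 6.13 to 6.26 in ad libitum fat. Hepatocyte markers, at 7.34 to 9.62 in ad libitum fat, read 5.38 to 7.82 in the wild-type controls. The part of these markers in the changes was not tested.

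In FGF21-Tg fat 1 of 27 genes rose, against 4.35%, and 0 fell, against 3.45%. Tm7sf2 read 7.94, 6.37 and 6.99 in transgenic and 5.76, 6.46 and 5.81 in wild-type fat, with overlap, and rose by 1.09 ± 0.33 (adjusted p = 0.0882). The median over the SREBP-2 arm was 0.45. Lss (1.17), Nsdhl (1.05), Cyp51 (1.02) and Fdps (0.86) did not pass, with adjusted p of 0.101 to 0.191, and neither did Hmgcs1 (−0.79, adjusted p = 0.139). Replicate 1 of transgenic fat, the one on the chip of the wild-type arrays, was the highest of the 3 for all of these genes and carried epididymis markers at 10.3 on average. Without it 0 genes rose and 1 fell, and with the chip as a block 10 rose and 0 fell, both given without the share of all genes.

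The difference between tissues was tested itself, as the change in muscle or fat minus the change in liver. In muscle 11 genes differed upward and 2 downward with restriction, of 28 genes, against 29.6% of 11772 genes in either direction. With the fast 13 differed upward and 1 downward, against 21.8%. With the transgene 0 differed, against 1.78%. In fat 17 differed upward and 3 downward with restriction, against 29.4%, and 12 upward and 1 downward with the fast, against 16.9%. With the transgene 5 differed upward and 0 downward, against 10.4%, and 5 and 1 in the deposited normalized values. These shares are read over 28 genes chosen with the liver result known. Most of the 28 read lower in fed muscle and fat than in liver. They had less room to fall there, which by itself favours upward differences.

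Of the 17 genes that fell in restricted liver, 8 also fell, 3 rose and 6 did neither in muscle, where 25.7% of all genes fell and 25.9% rose. In fat 3 of them fell, 7 rose and 7 did neither, where 25.1% of all genes fell and 22.4% rose. The change of 11 of the 17 differed between muscle and liver, and that of 14 between fat and liver. Of the 17 that fell in fasted liver, 7 fell, 2 rose and 8 did neither in muscle (21.5% and 19.7% of all genes), and 8 fell, 1 rose and 8 did neither in fat (15.5% and 12.3%). Here 13 differed between muscle and liver and 10 between fat and liver. These genes were picked by their fall in liver, which enters each difference, so the choice itself favours such counts. The share among all genes that fell in liver was not counted.

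The largest tissue difference was that of Cyp51 with restriction, 6.06 ± 0.46 between fat and liver (adjusted p = 9.1e-13). Mvd (2.77), Sqle (2.76), Msmo1 (2.59) and Lss (2.53) followed. With the fast Cyp51 differed by 4.47, Abcg1 by 3.26 ± 0.41, Sqle by 3.25 and Mvd by 3.16 between fat and liver. In muscle the widest differences with restriction were those of Mvd (3.19 ± 0.46), Lss (2.04) and Sc5d (1.75), and with the fast those of Mvd (3.86), Sqle (3.38) and Fdps (3.36). For Mvd and Abcg1 in fasted liver and Lss in ad libitum muscle, undetected signals entered these differences. Lower fed levels also left less room to fall outside liver. Sqle averaged 12.20 in ad libitum liver, 8.72 in fat and 7.40 in muscle, and Idi1 10.70, 6.76 and 6.65. Hmgcs1, at 15.22, 14.46 and 12.18, was less limited. How far background held back the falls in muscle and fat was not tested. Insig2 differed downward in muscle with both diets (−1.55 and −1.84) and in fat with restriction (−0.82), where liver had the rise that rests on the ad libitum arrays. The 5 genes that differed with the transgene between fat and liver were Insig2 (1.23), Nsdhl (1.18), Fdps (1.14), Sc5d (1.10) and Stard4 (0.96).

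**Figure D5:**
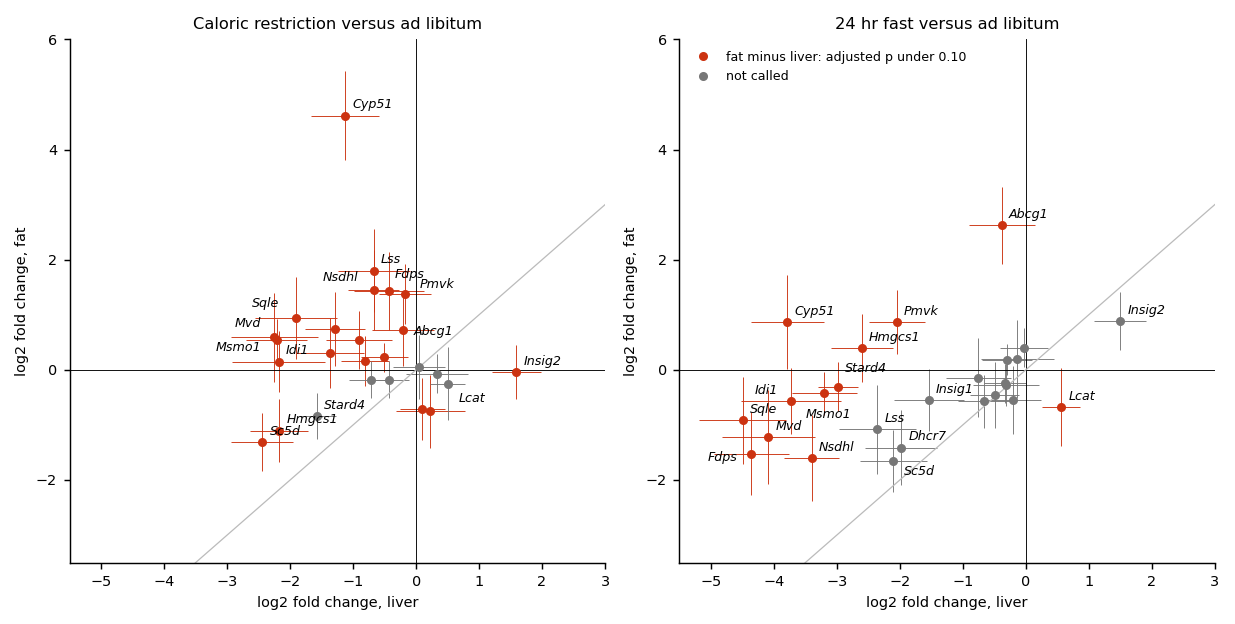
Log2 fold change in fat (vertical axis) against that in liver (horizontal axis) for restriction and for the fast, with 95% intervals, red where the difference between the tissues had an adjusted p under 0.10, and a grey line where both would be equal. Cyp51 lies at −1.13 in liver and 4.62 in fat with restriction, and Pmvk at −2.05 and 0.86 with the fast, where the points of Mvd and Abcg1 rest on signals not detected in fasted liver.

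Other genes around the pathway were counted from a list of 18, of which 16 were named on the array and 13 tested in liver. Restriction raised 2 and lowered 3 of the 13 in liver, against 17.6% and 17.9% of all genes, and the fast likewise raised 2 and lowered 3, against 8.42% and 9.67%. Srebf1, which encodes the lipogenic relative of SREBP-2 and is an LXR target, fell with both (−3.69 and −4.39). Pltp, a phospholipid transfer protein and LXR target, fell by 2.62 with restriction, and the lipoprotein receptor gene Lrp1 fell by 1.30. Tmem97, a sterol-regulated membrane protein, and Lbr, a sterol reductase of the nuclear membrane, fell with the fast (−1.04 and −0.72).

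Of the same list 13 genes were tested in muscle and 14 in fat. In muscle 5 rose and 4 fell with restriction (25.9% and 25.7% of all genes). With the fast 3 rose and 5 fell there (19.7% and 21.5%). In fat 5 rose and 3 fell with restriction (22.4% and 25.1%), and 4 rose and 2 fell with the fast (12.3% and 15.5%). Stard5, a sterol carrier related to Stard4, rose in every tissue with both diets, by 1.15 and 0.59 in liver, 0.89 and 0.60 in muscle, and 2.08 and 1.60 in fat. Srebf1 fell in muscle (−1.28 and −1.67) and in fasted fat (−3.42). Vldlr, the very low density lipoprotein receptor, rose by 0.92 in restricted liver and by 0.80 and 1.19 in restricted and fasted muscle. In FGF21-Tg liver Vldlr was the 1 gene of the 13 that passed, with a rise of 2.61, against 3.28% of all genes higher and 2.36% lower. In FGF21-Tg muscle it fell by 0.77, where 0 of the 13 rose and 1 fell (0.43% and 0.524% of all genes). In FGF21-Tg fat 2 of the 14 rose and 0 fell (4.35% and 3.45%).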

How the data were processed

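Signals of 48 Illumina arrays were analysed. The authors deposited signal intensities of BeadStudio (version not stated), 1 per probe and array and not normalized, each with a BeadStudio detection p-value. The authors also deposited log2 values with their own background correction and quantile normalization (9.28 to 16.07, median 9.34). They were used as an alternative, and each of the 48 arrays correlated best with its own column (lowest r = 0.996). The columns belonged to these 48 samples, with 0 of other samples. Of 25697 probes 23978 carried 1 gene symbol, 0 several and 1719 none.

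In R 4.3.3 with limma 3.58.1 the labels of chips 2 and 3 were exchanged, and intensities were background corrected from the detection p-values (nec, offset 16), quantile normalized within each tissue and log2 transformed. The detected probe with the highest mean signal stood for a gene. Each tissue had 1 fit of its 5 groups, and a gene was called at a Benjamini-Hochberg adjusted p under 0.10 over all genes tested. Differences between tissues were fitted over 48 arrays and 15 groups. The methods name SAM with a 2-fold criterion, and limma was used in its place. The fit was tested on simulated data. Changes are given on the log2 scale with SE.

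The genes and lists were chosen with earlier results of these data known. Every measured gene is named, and values per array are given for up to 8 called genes with the largest changes in a comparison and for Srebf2, Insig1, Insig2, Nr1h3, Abca1, Abcg5 and Abcg8. For genes not detected in a group the change is a bound against the lowest signal among detected probes. Alternatives for the arrays were the labels as given, the arrays without chips 2 and 3, and each array left out. For the signals they were an offset of 1, no background correction, median scaling, quantile normalization over all arrays and the deposited values. For the probes they were a detection p under 0.01, no detection filter and the mean of a gene's probes. For the fit they were the 2 groups alone, the chip as a block, a block of the replicate numbers and the 2-fold criterion. A Student's t-test of the 2 groups was also run, and SAM was not. The other fed control was added after seeing the data. The number of arrays limits the precision.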

Additional observations from a re-analysis of the deposited data

Results flagged for a closer look

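In groups of 4 arrays, 5 of 77 gene and group combinations had an array far from the other 3, where chance gives about 1 in 20. In restricted muscle, replicate 4 read 5.72 for Lss (the others 6.64 to 6.79) and 5.96 for Srebf2 (6.87 to 7.04). In restricted fat, replicate 1 read 6.10 for Tm7sf2 (6.94 to 6.96) and 7.77 for Abcg5 (6.93 to 6.97), and replicate 4 read 9.23 for Abcg1 (8.99 to 9.03).

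In 15 cases a gene was called in opposite directions in liver and in another tissue, and the difference of the log2 changes passed its own test. Between muscle and liver with restriction, the difference was 3.19 for Mvd, 2.04 for Lss, 0.83 for Scap and −1.55 for Insig2. With the fast it was 3.27 for Lss, 1.84 for Insig1 and −1.84 for Insig2. Against the other fed control the liver rises of Insig2 and the muscle rises of Insig1 and Lss after the fast were not called.

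Between fat and liver with restriction, the difference was 6.06 for Cyp51, 2.76 for Sqle, 2.59 for Msmo1, 2.53 for Lss, 2.17 for Nsdhl, 1.79 for Tm7sf2 and 1.39 for Insig1. With the fast it was 2.86 for Pmvk. Against the other fed control the fat rises of Sqle and Insig1 were not called. Restricted fat lay on another chip than ad libitum fat, and the part of the chip was not tested.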

How the results depend on the processing

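Counts in this section are given without the share of all genes called in the same fit. Liver held most of its calls. Leaving out each array gave 17 to 19 changed genes with restriction and 17 to 18 with the fast, with 17 of 19 and 16 of 19 calls held in every such fit. The fast against restriction gave 12 to 14. Restricted muscle gave 12 to 15, fasted muscle 10 to 12 (10 without fasted replicate 3), restricted fat 10 to 13 (10 without ad libitum replicate 2) and fasted fat 7 to 10 (7 without fasted replicate 3 or ad libitum replicates 1 or 2). In every such fit 12 of 14 and 7 of 13 calls held in muscle and 9 of 15 and 6 of 12 in fat (restriction and fast). FGF21-Tg gave 0 to 2 in liver, 0 in muscle and 0 to 3 in fat, where the count was 0 without wild-type replicate 3 or transgenic replicate 3. Differences from liver gave 11 to 15 and 14 to 15 in muscle (restriction and fast), 18 to 20 and 11 to 14 in fat, 0 for the transgene in muscle and 1 to 8 in fat (1 without liver wild-type replicate 2, liver transgenic replicate 3 or fat transgenic replicate 1).

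As labelled, restricted and fasted fat had 3 changed genes each and FGF21-Tg liver and fat 0, and the differences from liver were 7 in fasted muscle, 6 in fasted fat and 0 for the transgene in fat. Without chips 2 and 3, FGF21-Tg liver had 1, fat 0 and the fat difference 3. With the chip as a block, restricted muscle had 7, fasted muscle 8, FGF21-Tg liver 1, FGF21-Tg fat 10 and the muscle difference with restriction 8. The 2-fold criterion left 11 in restricted liver, 9 for the fast against restriction, 0 in FGF21-Tg liver, 3 and 1 in restricted and fasted muscle, 7 in restricted and in fasted fat and 13 for the fat difference with restriction. A Student's t-test of the 2 groups, with Benjamini-Hochberg adjustment, gave 0 in FGF21-Tg liver and fat and 3 in fasted muscle. The deposited values gave 5 in fasted fat, 0 in FGF21-Tg fat and 3 for the transgene difference in muscle. FGF21-Tg liver had 0 with median scaling or the 2 groups alone and 1 with no detection filter. FGF21-Tg fat had 2 with median scaling, with quantile normalization over all arrays or with a detection p under 0.01, and 0 with no background correction, no detection filter or the 2 groups alone. Its difference from liver had 3 with median scaling or an offset of 1.

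Some single genes turned. As labelled, Cyp51 and Lcat in restricted liver gave 0.49 and −3.21 and Stard4 gave 0.20 for the fast against restriction. With the mean of the probes, Nr1h3 in restricted muscle gave 0.35 and Insig2 in restricted fat 0.54. With the other fed control, restricted muscle gave 0.038 for Pmvk, −0.57 for Cyp51 and −0.68 for Lcat, fasted muscle 0.70 for Pmvk, −0.59 for Lcat and 0.25 for Npc2, and restricted fat 0.33 for Ebp and −0.22 for Insig1. With the chip as a block the Cyp51 difference between restricted muscle and liver was −0.16. The causes were not tested.

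The replicate number as a block gave 19 changed genes in restricted and 18 in fasted liver, 13 and 13 in muscle, and 11 and 12 in fat. After the group means were removed, same-numbered arrays of the compared groups of a tissue correlated at −0.05 to 0.20. The number was therefore taken only as the name of an array. Pairing across tissues was not examined.

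Leaving out chips 2 and 3 could not be run for the diets against ad libitum in muscle and fat or for their differences from liver, nor the chip block for restricted fat. The exchange of labels rests on tissue markers and, where both chips held fat, on correlations that coincide with the chip. Genes near background have understated changes. With 3 or 4 arrays per group, changes that did not pass are not shown to be absent. The 2 fed controls differed for several genes, and their chips differed too.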
